A study of Mus musculus with 4 samples.

Results

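Imprinted genes, of which a cell reads mainly the copy from the mother or mainly the copy from the father, were followed in crest-derived cells sorted from the gut of mouse embryos. The list held 39 genes of the 27178 in the table. It was selected on what is known of imprinting in the mouse with the CPM values (reads scaled to a common library total) of the wavefront and trailing libraries in view. The levels, differences and calls below are therefore a description of these genes and no independent evidence. By the allele that is usually expressed, 24 are paternally expressed, 10 are maternally expressed, and 5 (Gnas, Grb10, Ube3a, Blcap and Copg2) change allele by isoform or tissue. The allele is background knowledge, since gene totals do not tell the 2 copies apart.

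The study sequenced total RNA from the gut of Wnt1-tdT mice at 11.5 days post coitum, and asked how crest cells at the front of their migration differ in mRNA from those behind it. The wavefront group held 2 libraries of cells taken at the front, and the trailing group 2 libraries of cells from 1 to 1.5 mm behind it. All 4 libraries came from cells sorted for tdT, a red fluorescent protein that in these mice marks cells of the Wnt1 lineage, so both groups carry the reporter and any other cell in the sort gate is included. Whether replicates are separate embryos or litters is not stated, and a p-value here reflects the spread of these libraries alone, possibly a technical one.

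Imprinting mostly rests on DNA methylation that is set in the egg or the sperm and kept through later divisions. It is set at control regions, many of which act on whole clusters of genes. Many imprinted genes act on growth: paternally expressed ones often promote it and maternally expressed ones often limit it. Several, among them Peg3, Ndn, Nnat, Meg3 and Cdkn1c, are known for their expression in the developing nervous system.

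The wavefront libraries held 452144 and 114972 reads outside ribosomal RNA, and the trailing libraries 386540 and 330644. Ribosomal RNA took 15.6% and 55.5% of reads in the wavefront libraries, against 24.4% and 26.1% in the trailing ones, so wavefront replicate 2 is the shallowest library and the least precise. Levels are given as scaled CPM, CPM after TMM scaling, where a single read is worth 1.59 and 5.57 in wavefront replicates 1 and 2 and 1.79 and 1.99 in trailing replicates 1 and 2. Of the defining markers of enteric crest cells, the receptor gene Ret had 1413 and 155 reads at the wavefront and 864 and 545 in trailing libraries, and Sox10 had 14 and 4 reads at the wavefront and 22 and 26 in trailing libraries, so both were present in every library. Markers of other cells differed between libraries. Mesenchyme markers (15 of 19 with a read, with Twist1, Twist2, Barx1 and Myh11 at 0) summed to 369 and 1003 at the wavefront, against 163 and 163 behind it. Of the embryonic globin genes, which mark erythroid cells, Hbb-y had 0 and 67 reads at the wavefront and 1 and 0 in trailing libraries, and Hba-x had 0 and 33 reads at the wavefront and 0 and 0 in trailing libraries. Neuron markers (12 of 12 in the table with a read) summed to 1077 and 864 scaled CPM at the wavefront, against 3461 and 3625 in trailing libraries. Gut epithelium markers had 12 and 10 reads at the wavefront and 3 and 3 in trailing libraries, endothelium markers 29 and 11 at the wavefront and 17 and 28 in trailing libraries, and markers of leukocytes and mesothelium at most 5 in any library.

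Sequences around the start sites of 4 members are shown first, because these genes are among those that passed the count test described below. They are RefSeq windows on GRCm38.p6 from 250 bases before to 50 bases after the start. Of the 39 members 33 had at least 1 such window, 49 windows in all. Capitals mark matches, on either strand, to TGCCGC, the core that the imprint-keeping zinc-finger protein ZFP57 reads when methylated, or to GGGGCCCC, a motif of the imprinted factor Plagl1. Positions count the start site as 1 and the base before it as -1. Peg3 lies on the minus strand of chr7:6730370-6730669 and holds a GGGGCCCC at -201. Nnat lies on the plus strand of chr2:157559828-157560127 and holds TGCCGC, read on the other strand, at 28. Meg3 lies on the plus strand of chr12:109540746-109541045, the 1st of its windows, and holds TGCCGC, read on the other strand, at -190. Ndn lies on the plus strand of chr7:62348027-62348326 and holds neither.
Peg3: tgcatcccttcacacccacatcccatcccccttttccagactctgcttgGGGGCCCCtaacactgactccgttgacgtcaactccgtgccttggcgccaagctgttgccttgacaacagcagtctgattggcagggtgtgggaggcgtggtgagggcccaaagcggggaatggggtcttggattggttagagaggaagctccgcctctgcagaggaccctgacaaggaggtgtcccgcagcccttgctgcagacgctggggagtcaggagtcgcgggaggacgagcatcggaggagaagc
Nnat: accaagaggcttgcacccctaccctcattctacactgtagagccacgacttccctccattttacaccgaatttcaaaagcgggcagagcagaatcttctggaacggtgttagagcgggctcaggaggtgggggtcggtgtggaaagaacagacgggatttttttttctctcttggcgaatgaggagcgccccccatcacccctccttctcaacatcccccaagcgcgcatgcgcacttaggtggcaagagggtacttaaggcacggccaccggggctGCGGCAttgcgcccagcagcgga
Meg3: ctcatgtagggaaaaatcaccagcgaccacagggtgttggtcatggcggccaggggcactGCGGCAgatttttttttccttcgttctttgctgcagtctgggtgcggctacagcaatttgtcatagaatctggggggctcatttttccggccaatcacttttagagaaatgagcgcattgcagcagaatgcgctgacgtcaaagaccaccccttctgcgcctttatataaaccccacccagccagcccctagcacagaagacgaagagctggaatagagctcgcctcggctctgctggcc
Ndn: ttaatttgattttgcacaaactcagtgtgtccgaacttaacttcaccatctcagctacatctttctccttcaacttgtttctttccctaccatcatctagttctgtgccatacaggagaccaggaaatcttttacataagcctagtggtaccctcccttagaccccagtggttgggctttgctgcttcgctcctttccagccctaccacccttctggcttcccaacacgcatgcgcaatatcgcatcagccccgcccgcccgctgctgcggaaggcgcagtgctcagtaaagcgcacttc

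TGCCGC was found in 13 of the 49 member windows (26.5%), belonging to 12 genes, against 11.6% of the 32851 windows of all genes. Of these, the windows of Snrpn and Snurf are the same interval, and the Mest windows that hold it overlap in all but 3 bases. GGGGCCCC was found in 3 member windows (6.12%), those of Peg3, Usp29 and Rasgrf1, against 1.08% of all windows. The windows of Peg3 and Usp29, which are read in opposite directions, share 263 bases and so share that match. CCATCTT, the core of the YY1 motif, was found in 1 member window (2.04%), that of Ube3a, against 6.34% of all. No match of 1 motif overlapped a match of another. The member windows held a median of 13 CpG and 55.3% G and C, against 7 CpG and 52.7% over all windows, and TGCCGC itself holds a CG. A match describes letters in the window, not binding.

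At least 1 read was found for 34 members, and 5 (Snrpn, Snurf, Usp29, Rasgrf1 and Zim1) are listed at 0 in all 4 libraries. Together the members took 0.821% and 0.624% of reads outside ribosomal RNA in the wavefront libraries and 0.901% and 0.772% in the trailing ones. Mest and Grb10 alone made up 75.4% and 55.7% of the member reads at the wavefront and 71.5% and 58.0% behind it. Per kilobase of exon, the mean level over the 4 libraries was 487 scaled CPM per kb for Mest, 176 for Grb10, 132 for Nnat, 55.0 for Cdkn1c and 39.7 for Ndn. Slc38a4 (37.8) and Peg12 (31.4) came next. In all 18 pairs of neighbours in this order the ranges over the 4 libraries overlapped, so no neighbours differed beyond their spread. At the low end of the 19 members with enough reads to test, Kcnq1ot1 had 1.69 and Sgce 1.62 scaled CPM per kb.

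**Figure D1:**
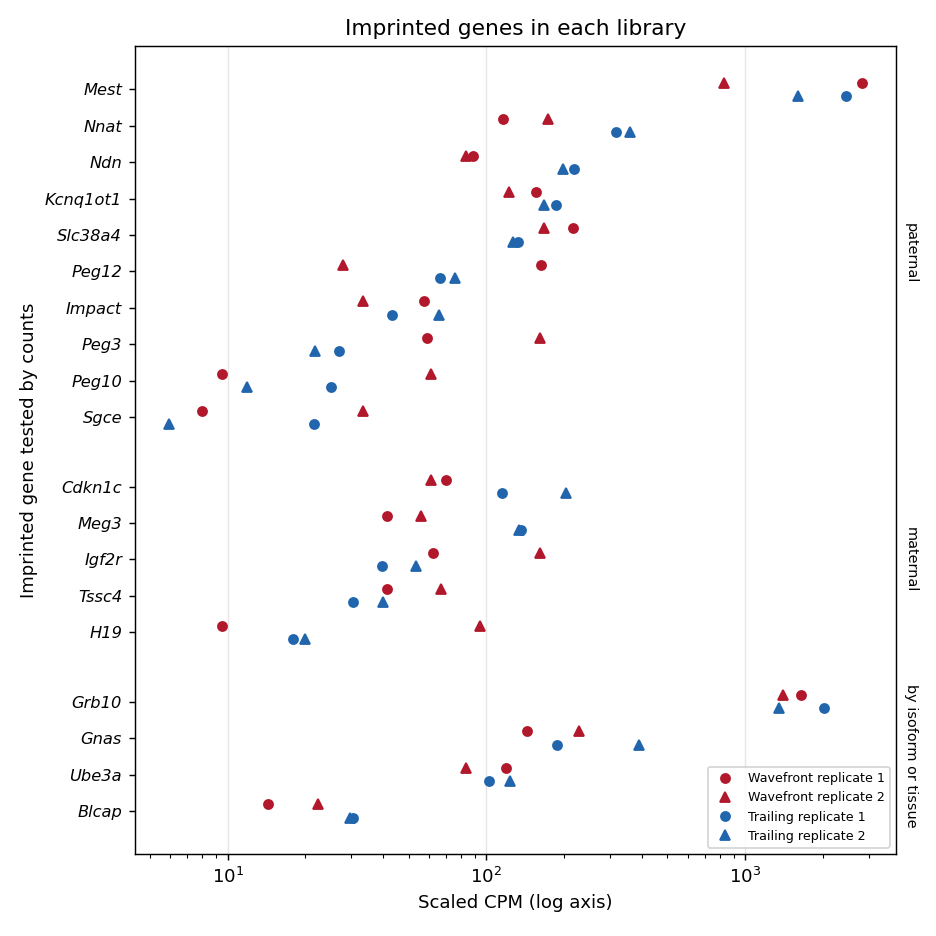
Scaled CPM (log axis) of the 19 imprinted genes tested by counts, in each library: red points are wavefront libraries and blue points trailing libraries, with circles for replicate 1 and triangles for replicate 2. Mest and Grb10 lie right of the other genes in every library, at 830 or more, and the red points of Ndn, Nnat, Meg3 and Cdkn1c lie left of their blue points.

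Between the groups, 1 imprinted gene rose at the wavefront in the count test, Peg3, and 4 fell, Meg3, Nnat, Ndn and Cdkn1c. The other 14 tested members did not pass. The test was edgeR's quasi-likelihood test on whole reads recovered from the CPM, with Benjamini-Hochberg adjustment over all 5759 genes tested and a threshold of 0.05. It called 1.74% of all genes tested, 0.399% as higher at the wavefront and 1.34% as lower, and nothing is read from the member count beside these shares because the list was made with this contrast in view. The test set for CPM values, limma on log2(CPM + 1), called 0 of 12519 genes (0% of those tested, 858 at an unadjusted p under 0.05) and 0 of the 32 members it covered (7 at an unadjusted p under 0.05). DESeq2 on the same reads called 14 genes and no member, and p-values from the authors' deposited table, after adjustment, called 13 genes and no member. With 2 libraries against 2 an exact permutation test of a single gene cannot go below p = 0.333. In bulk RNA, fewer cells that express a gene and less RNA per cell cannot be told apart.

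Peg3 encodes a large zinc-finger protein and is paternally expressed, on chromosome 7 from 6703892 to 6730431 (GRCm38, minus strand). It had 37 and 29 reads in wavefront libraries, against 15 and 11 in trailing libraries, which is 58.9 and 161.6 scaled CPM at the wavefront against 26.9 and 21.9 behind it. Both wavefront libraries were above both trailing libraries, and wavefront replicate 2 was 2.74 times wavefront replicate 1. The means were 110 ± 72.6 at the wavefront and 24.4 ± 3.57 behind it (SD, n = 2 each). The log2 fold change was 1.90 ± 0.41 (edgeR, adjusted p = 0.00337), and 1.68 in limma (adjusted p = 0.680). Here and below, the ± beside an edgeR fold change is an SE derived from the test's F statistic. Without wavefront replicate 2 it was 1.31 (edgeR, adjusted p = 0.0667), and without wavefront replicate 1 it was 2.71. Without trailing replicate 2 the edgeR adjusted p was 0.0613. In fits that leave a group with 1 library, here and below, that library is assumed to vary like those of the other group. Beside this rise, 2 of the 3 mesenchyme markers tested rose in the count test, Col3a1 with 132 and 94 reads at the wavefront and 65 and 58 in trailing libraries, and Des with 73 and 10 reads at the wavefront and 8 and 6 in trailing libraries. The mesenchyme sum and the embryonic globin reads were highest in wavefront replicate 2 (values above). The part of these markers in the result was not tested. Its domain neighbours Usp29 and Zim1 are listed at 0.

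Meg3 is a long noncoding RNA read from the maternal copy of the Dlk1-Meg3 domain, on chromosome 12 from 109541001 to 109571726 (plus strand). It had 26 and 10 reads at the wavefront and 76 and 67 reads in trailing libraries, which is 41.4 and 55.7 scaled CPM at the wavefront against 136 and 133 behind it. The groups did not overlap, and both trailing libraries were within 1.02-fold of each other. Means were 48.5 ± 10.1 at the wavefront and 135 ± 2.27 behind it (SD, n = 2 each), which is -1.56 ± 0.34 on the log2 scale (edgeR, adjusted p = 0.00397). In limma it was -1.76 (adjusted p = 0.680). Leaving out wavefront replicate 1, trailing replicate 1 or trailing replicate 2 gave edgeR adjusted p of 0.315, 0.0904 and 0.0722. Of its exon bases, 1228 overlap a gene of the other strand, Gm26906, which is not in the table, and without strand those reads cannot be told apart.

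Nnat encodes neuronatin, a small membrane protein of developing neurons and endocrine cells, and is paternally expressed on chromosome 2 from 157560078 to 157562522 (plus strand). It had 73 and 31 reads at the wavefront and 176 and 181 reads in trailing libraries, which is 116 and 173 scaled CPM at the wavefront against 316 and 360 behind it. The groups did not overlap. Means were 144 ± 40.0 at the wavefront and 338 ± 31.1 behind it (SD, n = 2 each), or -1.29 ± 0.33 on the log2 scale (edgeR, adjusted p = 0.0198). Leaving out wavefront replicate 1 gave -0.97 (edgeR, adjusted p = 0.405), and leaving out trailing replicate 1 or trailing replicate 2 gave adjusted p of 0.260 and 0.426. Nnat lies within the span of Blcap, on the opposite strand and with no shared exon base. Blcap had 14.3 and 22.3 scaled CPM at the wavefront and 30.5 and 29.8 in trailing libraries. It did not overlap between groups either, but its log2 fold change of -0.87 ± 0.54 did not pass (edgeR, adjusted p = 0.656).

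Ndn encodes necdin, a MAGE-family protein of post-mitotic neurons that restrains growth, and is paternally expressed on chromosome 7 from 62346569 to 62350262 (plus strand). It had 56 and 15 reads at the wavefront and 121 and 99 in trailing libraries, or 89.1 and 83.6 scaled CPM at the wavefront against 217 and 197 behind it. The groups did not overlap, and the wavefront libraries were the closest pair of wavefront values among the 5 genes. Means were 86.3 ± 3.92 at the wavefront and 207 ± 14.4 behind it (SD, n = 2 each). The log2 fold change was -1.25 ± 0.32 (edgeR, adjusted p = 0.0199). Each single library left out raised the edgeR adjusted p above 0.05, to 0.0897 at the least. The fold stayed between -1.31 and -1.15 in these 4 fits.

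Cdkn1c encodes p57, a cyclin-dependent kinase inhibitor that stops the cell cycle, and is maternally expressed on chromosome 7 from 143458339 to 143461050 (minus strand). It had 44 and 11 reads at the wavefront, against 64 and 102 in trailing libraries, or 70.0 and 61.3 scaled CPM at the wavefront against 115 and 203 behind it. The groups did not overlap, and trailing replicate 2 was 1.76 times trailing replicate 1. Means were 65.6 ± 6.17 at the wavefront and 159 ± 62.1 behind it (SD, n = 2 each), or -1.23 ± 0.34 on the log2 scale (edgeR, adjusted p = 0.0386). Without trailing replicate 2 it was -0.77 (adjusted p = 1.00), and in the other 3 fits that left out a library the edgeR adjusted p lay between 0.0505 and 0.234. Of its exon bases, 625 overlap Gm44732 on the other strand, not analysed here. In limma Nnat was at -1.54, Ndn at -1.54 and Cdkn1c at -1.50 on the log2 scale, each with an adjusted p of 0.680.

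Neuron markers were lower at the wavefront beside these 4 falls: 9 of the 11 neuron markers tested fell in the count test, and all 12 in the table had a negative log2 fold change in limma. Their part in the results for Meg3, Nnat, Ndn and Cdkn1c was not tested. The log2 fold changes of the tested neuron markers ran from -4.59 to -0.39 in the count test, with a median of -3.65.

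**Figure D2:**
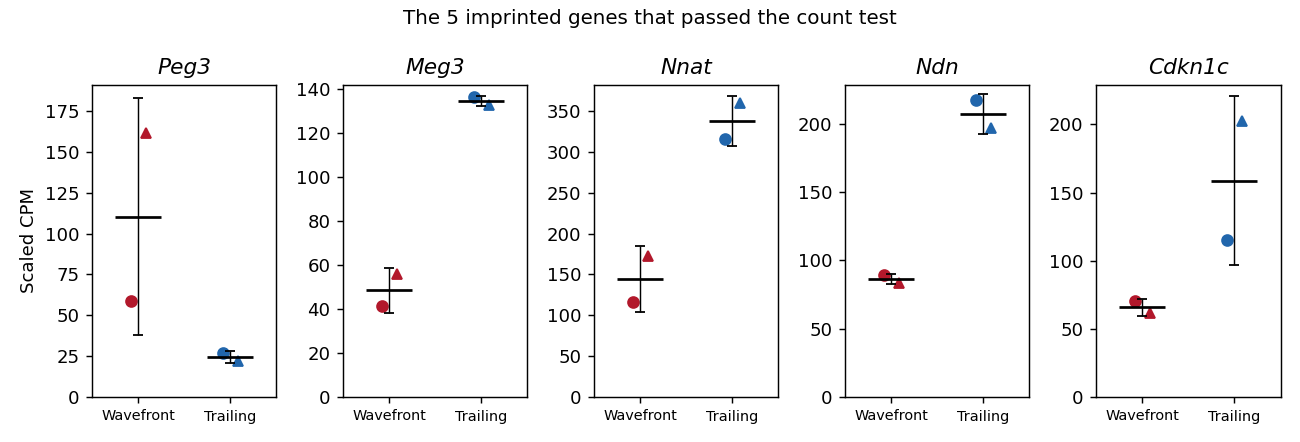
Scaled CPM of Peg3, Meg3, Nnat, Ndn and Cdkn1c in wavefront (red, left) and trailing (blue, right) libraries. Circles are replicate 1 and triangles replicate 2, bars are the mean and the whisker its SD (n = 2). Wavefront and trailing points do not overlap in any panel, and the spread within a group is widest for Peg3 at the wavefront (58.9 and 161.6) and for Cdkn1c behind it (115 and 203). The panels show genes picked by the count test on these libraries. Over all genes tested by counts, 20.7% had groups apart and lower at the wavefront and 18.6% apart and higher.

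Among the other paternally expressed genes tested, none passed. Mest, an enzyme-like protein of mesoderm and many embryonic tissues, had 2812 and 830 scaled CPM at the wavefront and 2453 and 1592 in trailing libraries. The groups overlapped, with wavefront replicate 1 at 3.39 times wavefront replicate 2. Its log2 fold change was -0.14 ± 0.43 (edgeR, adjusted p = 0.961), and 912 of its exon bases are shared with Copg2, a coatomer subunit, on the other strand. Slc38a4, an amino acid transporter, had 216 and 167 scaled CPM at the wavefront and 133 and 127 in trailing libraries. Its groups did not overlap and its log2 fold change was 0.60 ± 0.30 (edgeR, adjusted p = 0.519). Kcnq1ot1, the antisense RNA that silences its domain in cis, had 156 and 123 at the wavefront and 185 and 167 in trailing libraries. That was -0.30 ± 0.30 on the log2 scale (edgeR, adjusted p = 0.844), and the groups did not overlap. Impact, a regulator of the translation response to amino acid shortage, had 57.3 and 33.4 at the wavefront and 43.1 and 65.6 in trailing libraries, which overlap.

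Peg12, an intronless gene of the Snrpn-Ndn domain related to the Wnt regulator Frat, had 162 and 27.9 scaled CPM at the wavefront and 66.4 and 75.5 in trailing libraries. The trailing values lie between the wavefront values, which differ 5.83-fold. Its log2 fold change was 0.70 ± 0.36 (edgeR, adjusted p = 0.528), 1.25 without wavefront replicate 2 (adjusted p = 0.0230) and -1.34 without wavefront replicate 1, so a single library turned its direction. Peg10, a gene derived from a retrotransposon, had 9.55 and 61.3 at the wavefront and 25.1 and 11.9 in trailing libraries. Its neighbour Sgce, epsilon-sarcoglycan, had 7.96 and 33.4 at the wavefront and 21.5 and 5.96 in trailing libraries. Both genes were high in wavefront replicate 2 and trailing replicate 1, and both overlapped between groups. The reads were few: Peg10 had 6 and 11 at the wavefront and 14 and 6 in trailing libraries. Sgce had 5 and 6 at the wavefront and 12 and 3 in trailing libraries. Their log2 fold changes were 0.33 ± 0.63 for Peg10 and 0.06 ± 0.73 for Sgce, and both turned negative without wavefront replicate 2 (-0.91 and -0.75).

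Of the maternally expressed genes that did not pass, Igf2r, the receptor that takes up and clears IGF2, had 62.1 and 161.6 scaled CPM at the wavefront and 39.5 and 53.7 in trailing libraries. Its groups did not overlap, and it was 1.03 ± 0.37 higher on the log2 scale (edgeR, adjusted p = 0.211). Without wavefront replicate 1 it was 1.80 (edgeR, adjusted p = 0.00465). H19, a long noncoding RNA beside Igf2, had 6 and 17 reads at the wavefront and 10 and 10 reads in trailing libraries. In scaled CPM this was 9.55 and 94.7 at the wavefront against 17.9 and 19.9 behind it, so the wavefront libraries lie on either side of the trailing ones. Its log2 fold change was 0.84 ± 0.61 (edgeR, adjusted p = 0.731), 2.31 without wavefront replicate 1 (adjusted p = 0.00292) and -0.91 without wavefront replicate 2. The mesenchyme sum and the embryonic globin reads were also highest in wavefront replicate 2, and their part in the values of Igf2r and H19 was not tested. Tssc4 had 41.4 and 66.9 scaled CPM at the wavefront and 30.5 and 39.7 in trailing libraries, which did not overlap (0.48 ± 0.41, edgeR, adjusted p = 0.801).

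The genes whose allele depends on isoform or tissue had log2 fold changes below 0 in all 4 tested cases, and none passed. Grb10 was above 0 without wavefront replicate 2 or trailing replicate 1, and Ube3a without wavefront replicate 2 or trailing replicate 2. Gnas, the stimulatory G protein alpha subunit, had 143 and 228 scaled CPM at the wavefront and 187 and 390 in trailing libraries (-0.69 ± 0.34, edgeR, adjusted p = 0.488). Grb10, an adaptor that dampens insulin and IGF receptor signals, had 1640 and 1393 at the wavefront and 2013 and 1351 in trailing libraries (-0.15 ± 0.39, adjusted p = 0.950). Ube3a, a ubiquitin ligase, had 119 and 83.6 at the wavefront and 102 and 123 in trailing libraries (-0.08 ± 0.31, adjusted p = 0.968). The groups overlapped for Gnas, Grb10 and Ube3a. Ube3a shares 1803 exon bases with Snhg14, its antisense RNA, which had 6 and 3 reads at the wavefront and 10 and 4 in trailing libraries, and Gnas shares 988 with Nespas, which had 0 and 1 reads at the wavefront and 2 and 1 in trailing libraries.

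**Figure D3:**
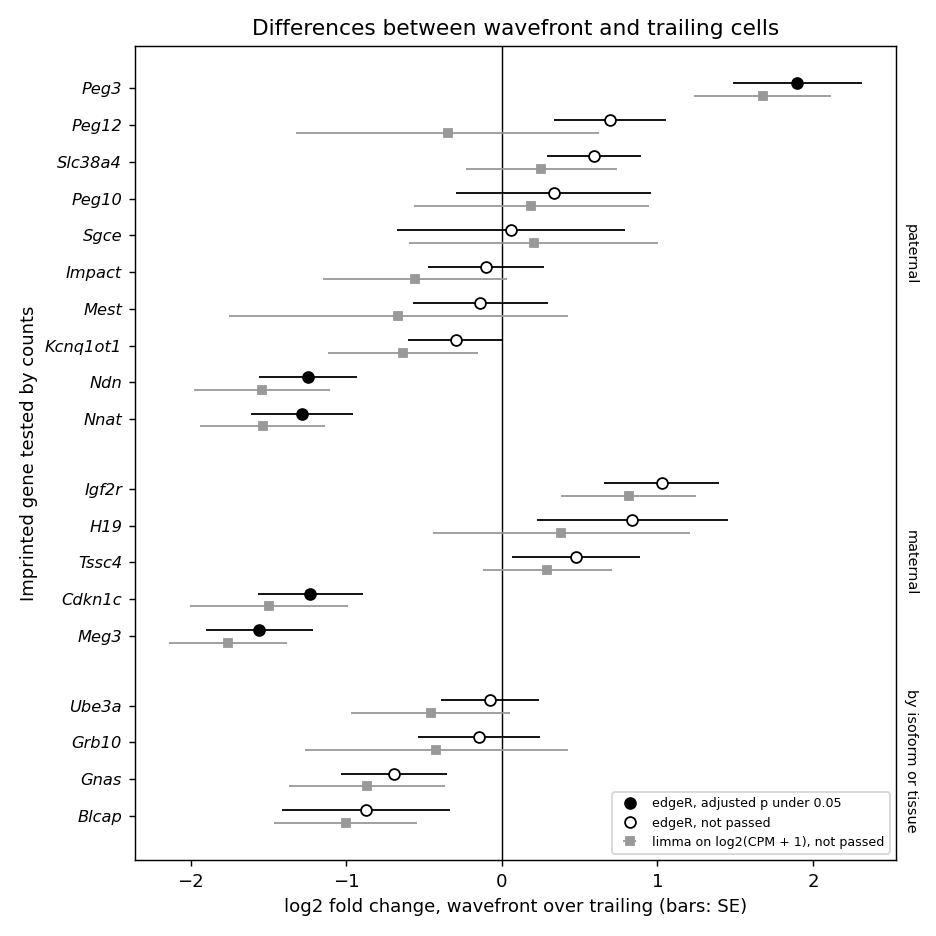
Log2 fold change, wavefront over trailing, of the 19 imprinted genes tested by counts, grouped by the expressed allele, with the SE as bars. For edgeR the SE is derived from the F statistic. Circles are edgeR (filled where the adjusted p is under 0.05) and grey squares limma on log2(CPM + 1), where none passed. Peg3 is the only filled point above 0 and Meg3, Nnat, Ndn and Cdkn1c the filled points below 0.

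In the count test 10 paternally expressed genes were tested, with 1 that rose, 2 that fell and a median log2 fold change of -0.02. Of 5 maternally expressed genes tested none rose and 2 fell, with a median of 0.48. The 4 genes that depend on isoform or tissue had a median of -0.42, and the median over all genes tested was 0.01. These medians cover only members with enough reads and are given as a description. In limma the medians were -0.41 over 20 paternally expressed genes and -0.21 over 7 maternally expressed genes, against -0.35 over all genes. The maternal median was above 0 in the count test and below 0 in limma, but above the median of all genes in both. The paternal median was below that of all genes in both, and the genes covered differ between the tests. That order depended on the setting. With DESeq2 the paternal median was also below that of all genes (-0.14 against 0.072). It was above with library size alone (-0.16 against -0.18) and in the authors' deposited table (0.014 against -0.025). Among the 19 genes the groups did not overlap for 10: 6 were lower at the wavefront (Ndn, Nnat, Kcnq1ot1, Meg3, Cdkn1c and Blcap) and 4 higher (Peg3, Slc38a4, Igf2r and Tssc4). Over all genes tested, 20.7% had groups apart and lower at the wavefront and 18.6% apart and higher.

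The Kcnq1 and Snrpn-Ndn domains hold 3 tested members each. In the Kcnq1 domain Cdkn1c fell, Tssc4 (0.48) and Kcnq1ot1 (-0.30) did not pass, and Phlda2, a maternally expressed gene that limits placental growth, had a single read, in a trailing library. In the Snrpn-Ndn domain Ndn fell and Peg12 (0.70) and Ube3a (-0.08) did not pass. The other genes of that domain had too few reads to be tested by counts: Magel2 had 2 and 0 reads at the wavefront and 1 and 4 in trailing libraries, and Mkrn3 had 5 and 3 reads at the wavefront and 4 and 3 in trailing libraries. Snrpn and Snurf, of which Snurf shares all 216 of its exon bases with Snrpn, are listed at 0. Gm38393, on the same strand and not in the table, also shares those 216 bases of Snurf, and 589 exon bases of Snrpn. How reads on shared bases were counted is not given, and its part in these values was not tested. In the Dlk1-Meg3 domain Meg3 fell, while Rian, a noncoding RNA that lies beyond it and carries small nucleolar RNAs, had 9 and 4 reads at the wavefront and 9 and 9 in trailing libraries, or 18.3 ± 5.63 scaled CPM at the wavefront and 17.0 ± 1.23 behind it (SD, n = 2 each). Mirg, at the far end, had 2 reads in wavefront replicate 1 and none elsewhere. The paternally expressed genes of that domain had few reads: Dlk1, an atypical Notch-pathway ligand, had 0 and 0 at the wavefront and 0 and 3 in trailing libraries, and Rtl1, derived from a retrotransposon, had 0 and 1 at the wavefront and 1 and 1 in trailing libraries. The 29 miRNA genes annotated inside members and present in the table had 0 reads.

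Of the 20 members not tested by counts, 15 had a read and none had more than 31 in all 4 libraries together. Igf2, the fetal growth factor that Igf2r clears, had 0 and 3 reads at the wavefront and 0 and 2 in trailing libraries. Of the Igf2 exon bases, 3596 are shared on the same strand with Gm49394, which is not in the table. The part of that overlap in these reads was not tested. Plagl1, a zinc-finger factor known for acting on other imprinted genes, had 5 and 4 reads at the wavefront and 0 and 2 in trailing libraries. Its scaled ratio, wavefront over trailing, was 5.91, with a 95% counting interval of 1.22 to 56.2 that covers counting error only, and limma put it at 2.47 on the log2 scale (adjusted p = 0.680). For Magel2 that ratio was 0.525, with an interval of 0.05 to 3.21. Asb4, maternally expressed, had 5 and 3 reads at the wavefront and 11 and 9 in trailing libraries. Mcts2 had 8 and 2 reads at the wavefront and 5 and 12 in trailing libraries. Airn, the antisense RNA that silences Igf2r in cis, had 7 and 2 reads at the wavefront and 4 and 2 in trailing libraries, and Copg2 had 5 and 1 reads at the wavefront and 10 and 1 in trailing libraries. Nap1l5 was listed at 0 at the wavefront and had 1 and 3 reads in trailing libraries, and Zrsr1 had 3 and 1 reads at the wavefront and 3 and 2 in trailing libraries. These reads were too few for the count test, and none of the 13 that limma covered passed there.

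The replicates differed more at the wavefront than behind it. For the tested members the median fold between replicates was 1.60 at the wavefront and 1.23 in trailing libraries, and over all tested genes with a read in each library it was 1.40 at the wavefront and 1.26 in trailing libraries. The wavefront fold was the larger for 15 of 19 members. At the wavefront, 7 members differed by more than 2.57-fold, the 90th percentile of all tested genes, and in trailing libraries 3 differed by more than 1.81-fold. Replicate 2 was above replicate 1 at the wavefront by 9.92-fold for H19, 6.42 for Peg10, 4.20 for Sgce, 2.74 for Peg3 and 2.60 for Igf2r. The first 3 of these folds rest on few reads in wavefront replicates 1 and 2: 6 and 17 for H19, 6 and 11 for Peg10 and 5 and 6 for Sgce. A single read is worth 1.59 scaled CPM in wavefront replicate 1 and 5.57 in wavefront replicate 2. Counting error in these folds was not tested. Replicate 1 was above replicate 2 by 5.83-fold for Peg12 (102 and 5 reads) and 3.39 for Mest.

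**Figure D4:**
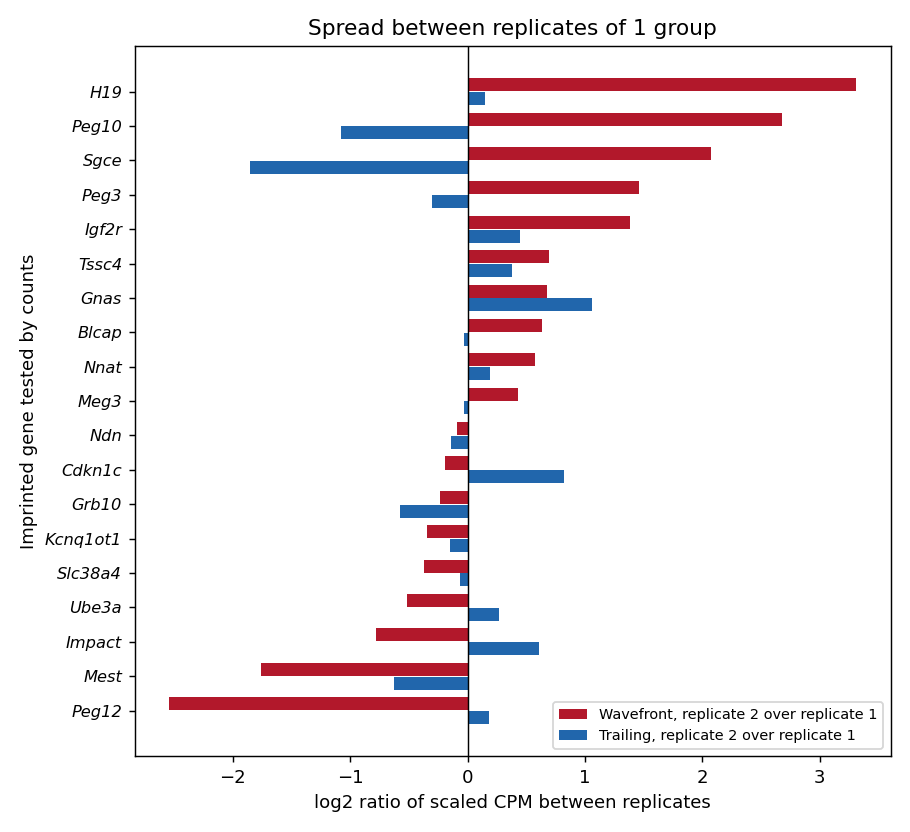
Log2 ratio of scaled CPM between the replicates of each group for the 19 tested imprinted genes, replicate 2 over replicate 1, with wavefront bars in red above trailing bars in blue. The wavefront bars reach from a 9.92-fold excess in replicate 2 (H19) to a 5.83-fold excess in replicate 1 (Peg12).

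The 5 genes were followed through the other settings. Their direction stayed in all 12 alternative count settings, but the call did not. Peg3 passed in 7 of 12, Meg3 in 6, Nnat in 5, Ndn in 4 and Cdkn1c in 1. With library size alone as the scaling none passed, and the median over all genes tested was then -0.18 on the log2 scale.

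**Figure D5:**
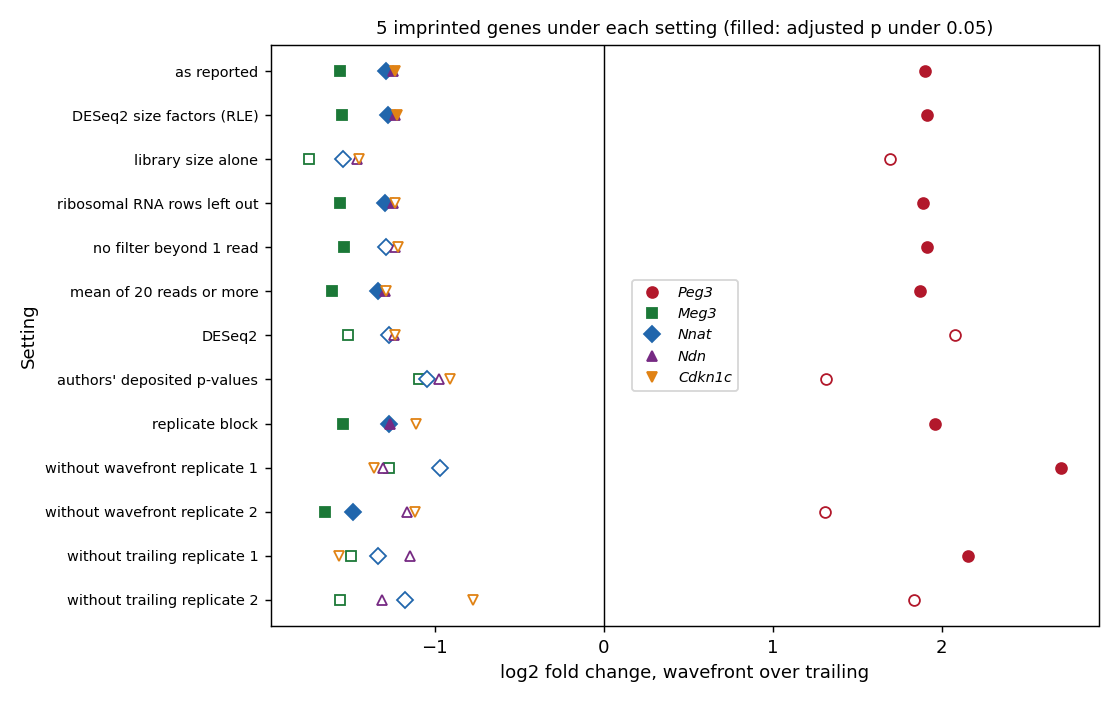
Log2 fold change, wavefront over trailing, of Peg3, Meg3, Nnat, Ndn and Cdkn1c in the count test as reported and under each alternative setting. Filled symbols passed an adjusted p of 0.05. Peg3 stays right of 0 (1.31 to 2.71) and the other genes left of it. No symbol is filled with library size alone, DESeq2 or the authors' deposited p-values. The filled symbols also thin out when libraries are left out.

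Lists around the members gave no calls. Of 38 other imprinted genes in the table, 9 were tested by counts and none passed (0 at an unadjusted p under 0.05, median log2 fold change 0.09). In limma 19 of them were tested and none passed, with 3 at an unadjusted p under 0.05, all lower at the wavefront, and a median of -0.85, against -0.35 over all genes. Those with the highest levels were Nap1l4, Cd81, Inpp5f and H13, with log2 fold changes from -0.05 to 0.35. Of 21 genes that set or keep imprints, 17 were tested and none passed (0 at an unadjusted p under 0.05, median 0.22). Uhrf1, which brings the maintenance methyltransferase to replicated DNA, had 590 and 423 scaled CPM at the wavefront and 371 and 284 in trailing libraries (0.64 ± 0.33, edgeR, adjusted p = 0.521). Dnmt1, that methyltransferase, had 356 and 290 at the wavefront and 260 and 209 in trailing libraries (0.48 ± 0.31). Trim28, the partner of ZFP57, had 107 and 100 at the wavefront and 78.9 and 155 in trailing libraries, and Dnmt3a, which sets methylation in germ cells, had 148 and 134 at the wavefront and 145 and 115 in trailing libraries. Dnmt3l, Ctcfl and Dppa3, genes of germ cells and early embryos, were at 0. Of 12 genes of IGF signalling, 10 were tested by counts and none passed. An unadjusted p under 0.05 (edgeR) was seen for 3, all higher at the wavefront: Igfbp4 (0.88), Igf1 (0.77) and Irs1 (1.11). Over all 5759 genes tested by counts, 573 had an unadjusted p under 0.05, 233 of them higher at the wavefront. The groups did not overlap for Igfbp4 and Igf1 but overlapped for Irs1. In limma 0 of the 12 had an unadjusted p under 0.05. The receptor Igf1r, through which IGF2 signals, had 229 and 162 scaled CPM at the wavefront and 147 and 231 in trailing libraries.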

How the data were processed

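RNA of tdT-sorted crest cells was sequenced from 2 wavefront and 2 trailing libraries made with Nextera XT, an unstranded kit. GRCm38 (mm10) was the build and STAR 2.5.2b, featureCounts, DESeq2, bcl2fastq 2.17 and FastQC 0.11.9 the tools, per the submitters' processing notes. Annotation release, strand setting and treatment of reads on several genes: not given in the sources used here.

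CPM of each library were deposited in 1 table of 27606 rows, per the file headers, and 428 repeated rows were kept once. The members took 41 rows, as Dlk1 and Rtl1 are each listed under 2 Ensembl identifiers. Rows without a symbol (958) stayed in the fits. The authors' deposited BaseMean is a signal, mean reads after division by size factors. The deposited fold change and its error are on the log2 scale, the Wald statistic is a score, and the deposited p-value is unadjusted, per the file headers.

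Dividing each CPM by the worth of a single read gave whole reads for 100% of values (within 0.01 reads), 535636 and 258457 for wavefront replicates and 511074 and 447224 for trailing replicates. For CPM the design set limma 3.58.1 on log2(CPM + 1), with its variance trend, over genes whose mean CPM exceeded 1. The count test on recovered reads was edgeR 4.0.16 (quasi-likelihood, TMM factors, filterByExpr with 10 reads), under R 4.3.3. It called 100 genes. That test gives no SE, so the SE beside its fold changes is the absolute log2 fold change over the square root of F. DESeq2 1.42.0 was the other count tool. Fold changes of limma are on the log2(CPM + 1) scale, where the added 1 shrinks those of low genes. These CPM were not scaled by TMM, and the median of all genes was -0.35 there and 0.01 in the count test. On CPM outside ribosomal RNA rows, limma put Peg3 at 1.97, Meg3 at -1.48, Nnat at -1.25, Ndn at -1.26 and Cdkn1c at -1.22. Tests are two-sided, adjusted p are Benjamini-Hochberg over all genes tested with a threshold of 0.05, and scripts were tested on simulated data. Lengths, coordinates and overlaps are from GENCODE M21.

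The members and the other gene lists were chosen with earlier results of these data known. By the rule for named genes, every member is accounted for, and the other lists are given by the genes that passed and up to 4 of the highest level. The IGF list departs from that rule. Igf1r is given as the receptor for IGF2, while Igf2bp1, Igf2bp2 and Igf2bp3 had higher mean levels and are not described. Reads of members below the filter, the 3 IGF genes at an unadjusted p under 0.05 and the 3 genes at 0 were named after their values were seen. Alternatives covered scaling, ribosomal RNA rows, filters, pseudocounts, tools, a replicate block and leaving out each library.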

Additional observations from a re-analysis of the deposited data

How the results depend on the processing

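The count test called 5 imprinted genes as reported and with DESeq2's size factors, 4 with ribosomal RNA rows left out or a mean of 20 reads or more, and 2 with no filter beyond 1 read. It called 0 with library size alone, 0 with DESeq2 and 0 with the authors' deposited p-values, and 0 to 3 when a library was left out. Over all genes it called 100 as reported, 42 at a mean of 20 reads or more, 14 with DESeq2, 13 with the authors' deposited p-values and 41 to 142 without a library. Limma called 0 genes as reported, 3 with a pseudocount of 5, 5 with no filter, 36 at a mean CPM above 10 and 4 outside ribosomal RNA, and 0 imprinted genes under each of its 10 alternatives. The replicate numbers are shared between groups, but with 2 pairs nothing shows that they pair the libraries (correlation of deviations 0.0711 over 5759 genes). With the replicate block the count test called 78 genes and 4 imprinted genes (Cdkn1c at an adjusted p of 0.108), and limma called 52 genes and 0 imprinted genes.

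The median log2 fold change of paternally expressed genes was -0.02 as reported, -0.16 with library size alone, -0.18 at a mean of 20 reads or more, -0.14 with DESeq2, 0.014 in the authors' deposited table and -0.52 to 0.018 without a library. That of maternally expressed genes was 0.48 as reported, -0.024 with no filter, -1.29 at a mean of 20 reads or more (3 genes), 0.02 in the authors' deposited table and -0.91 to 0.93 without a library. The number of genes tested differs between these fits.

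Leaving out a library turned the direction of 8 members in the count test, none of them among the 5 that passed. The ranges were -1.34 to 1.25 for Peg12, -1.29 to 0.52 for Mest, -0.91 to 1.69 for Peg10, -0.75 to 1.23 for Sgce, -0.68 to 0.20 for Impact, -0.91 to 2.31 for H19, -0.41 to 0.19 for Grb10 and -0.43 to 0.14 for Ube3a. In limma they were -1.96 to 1.26 for Peg12, -1.92 to 0.59 for Mest, -0.73 to 1.11 for Peg10, -0.63 to 1.04 for Sgce, -1.30 to 0.18 for Impact, -0.85 to 1.61 for H19, -0.91 to 0.071 for Grb10, -1.08 to 0.17 for Ube3a and -0.30 to 0.81 for Slc38a4. Sgce was -0.12 with library size alone. The cause was not tested. Wavefront replicate 2, with the fewest reads, limits the precision of every comparison.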
